A study of Solanum lycopersicum with 6 samples.

Results

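The microRNA (miRNA) content of normal, well-watered green tomato fruit (Solanum lycopersicum) was described from the 3 control libraries of a 6-library study of watering, chosen by their treatment label. The other 3 libraries, from fruit of drought-stressed plants, were left out throughout. Control plants grew under 12 h of light at 25 °C with dark periods at 20 °C, had distilled water alone from the potting of the seedlings to flowering, and from flowering on received liquid fertilizer diluted 500-fold and plain water on alternate days. Whether the libraries came from separate plants is not stated in the labels, so the spread among them may be technical.

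Plant miRNAs are cut by a Dicer-like enzyme from a hairpin precursor as a duplex of a 5p and a 3p arm. One arm, the guide, is loaded into an Argonaute protein and directs cleavage or repression of mRNAs that match it closely, and the other is mostly degraded. Many families (members share the number after miR) are old and regulate transcription factors of development, whereas others are known mainly from the nightshade family, Solanaceae. In tomato fruit, miR156, miR164, miR167, miR171, miR172 and their transcription factor targets are known for parts in fruit set, growth and ripening.

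The deposited table listed 137 mature tomato miRNAs of 68 families. Control 1 held 661605 counts, control 2 held 644434 and control 3 held 749332. Every share below is a percent of the library's sum over these 137 entries, since no total of all reads is used here. Adapter ligation in library making differs in efficiency between miRNAs, so shares order the entries by counts sequenced and not by molecules in the fruit, and the part of ligation in the order was not tested. Fruit is a mixture of tissues, and fewer cells of a type and less miRNA per cell cannot be told apart. The table holds only miRNAs, so the labelled tissue could not be checked against marker genes.

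Control 1 stood apart from the other libraries. To turn the composition of control 1 into that of control 2 or control 3, 18.6% or 18.2% of the counts would have to move to other entries, against 3.69% between control 2 and control 3. Over the 69 entries with a mean of at least 100 counts, the median fold difference in share was 1.46 between controls 1 and 2, 1.36 between controls 1 and 3, and 1.15 between controls 2 and 3. Of the 20 most abundant entries, 19 had their highest or lowest share in control 1, the exception being miR6022. In control 2 this held for 12 and in control 3 for 9. Any entry has 2 of the 3 libraries at an end of its range. Over the 69 entries, the numbers were 60 for control 1, 47 for control 2 and 31 for control 3. The total of control 1, 661605 counts, lay between those of control 2 and control 3. Values are therefore given for each library, in the order control 1, 2 and 3.

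**Figure D1:**
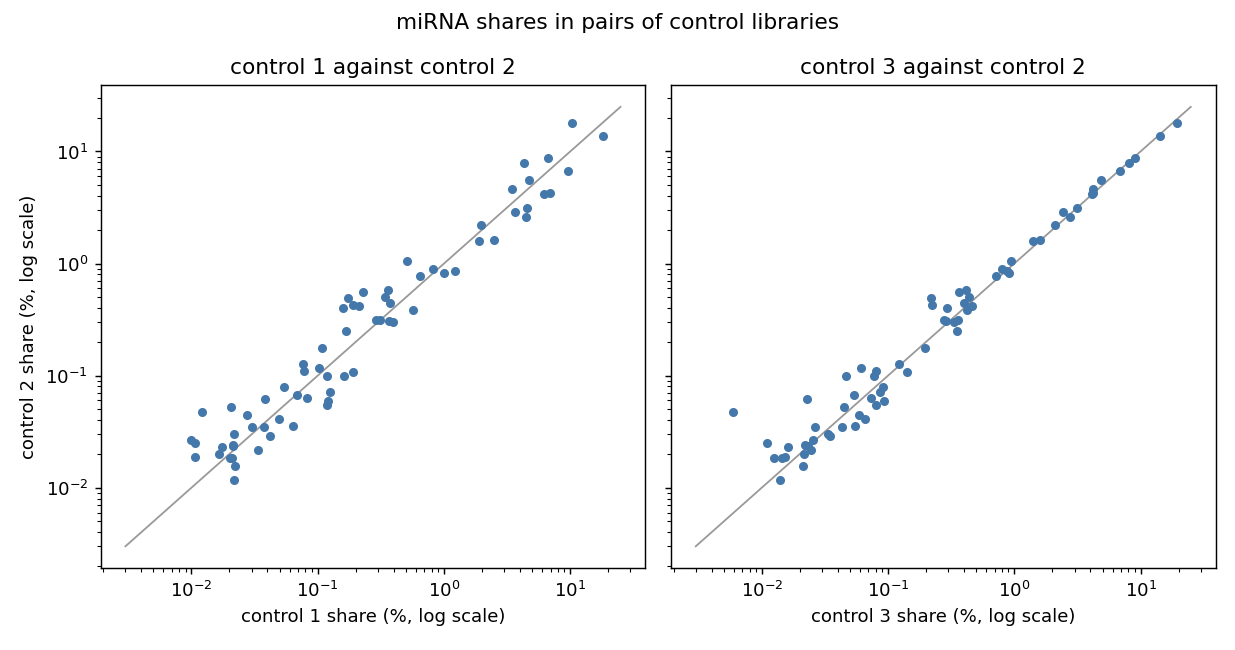
Share of the library total (%, both axes on a log scale) of the 69 miRNAs with a mean of at least 100 counts, control 2 against control 1 on the left and against control 3 on the right, with the line of equal shares. Points lie closer to the line on the right, where the median fold difference was 1.15 against 1.46 on the left, and 1 entry, miR169e-3p, lies far off it.

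Counts were concentrated in few miRNAs. The entries needed to reach 50% of the counts numbered 5, 5 and 4, those for 90% numbered 16, 18 and 17, and those for 99% numbered 44, 45 and 44. By mean share, 2 entries exceeded 10% and together took 31.4% ± 2.69 of the counts (SD, n = 3). A further 13 entries between 1% and 10% took 57.4% ± 3.18, and 23 entries between 0.1% and 1% took 9.69% ± 0.869. The 33 entries between 0.01% and 0.1% took 1.40% ± 0.0672, and the remaining 55 with any count took 0.149% ± 0.00324. The median entry of all 137 stood at 0.0148%.

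miR162 and miR159 led the profile. miR162, which in Arabidopsis targets DICER-LIKE1, the enzyme that cuts miRNA precursors, took 10.4%, 18.0% and 19.6% of the counts (16.0% ± 4.90, SD, n = 3). miR159, which targets GAMYB-like transcription factors, took 18.2%, 13.8% and 14.3% (15.4% ± 2.38). miR159 was above miR162 in control 1 and below it in controls 2 and 3, so the order of these entries did not hold across libraries. Both were above the third entry, miR166a, in all 3 libraries.

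The next 8 entries had mean shares from 8.19% down to 3.61%. miR166a, which targets HD-ZIP III transcription factors of tissue polarity, stood at 6.67%, 8.79% and 9.12%. miR159b, a close relative of miR159, stood at 9.62%, 6.74% and 6.94%, and miR396b, whose targets are growth-regulating factors, at 4.30%, 7.88% and 8.10%. miR10532 stood at 6.91%, 4.25% and 4.24%, and no target is named for it here. Thus miR166a and miR396b were lowest in control 1 and miR159b and miR10532 highest there. miR9471a-3p stood at 4.74%, 5.57% and 4.90%, and miR9471b-3p at 6.25%, 4.15% and 4.15%. miR396a-5p stood at 3.48%, 4.66% and 4.18%, and miR9470-3p at 4.57%, 3.14% and 3.13%. The first 10 entries together took 75.1%, 76.9% and 78.6% of the counts.

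Few places in this order were fixed. Among the 19 pairs of neighbours in the first 20 entries, the higher one by mean share was also higher in every library in 5. These were miR159 over miR166a, miR9470-3p over miR7981e, miR482e-3p over miR166c-3p, miR7981f over miR396a-3p, and miR396a-3p over miR482b. The other 14 pairs changed order in at least 1 library.

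**Figure D2:**
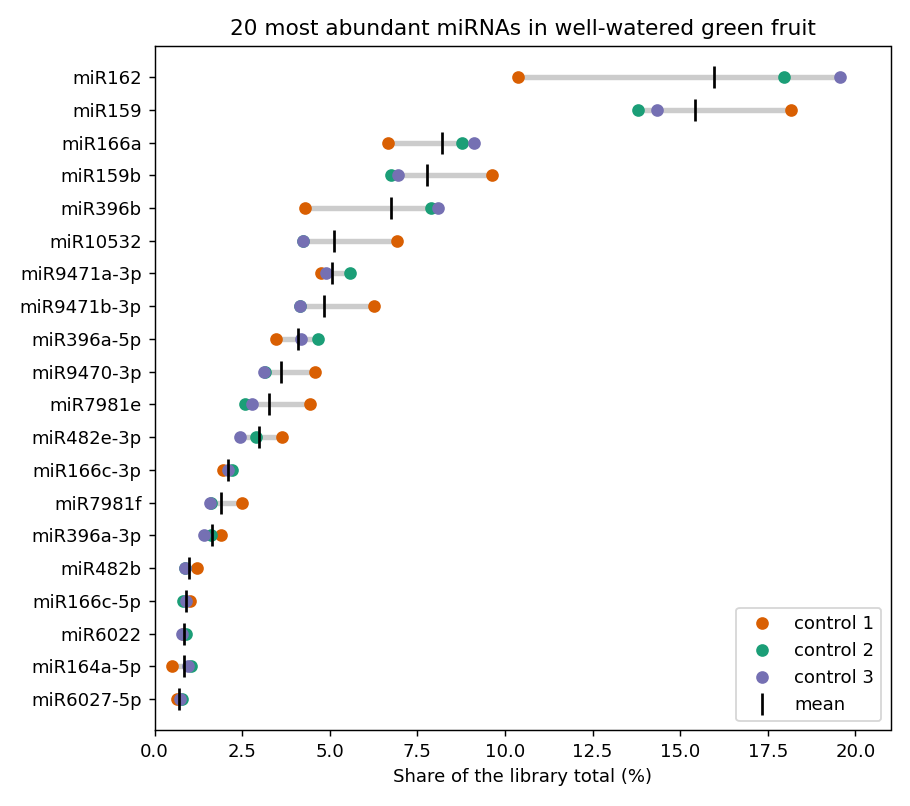
Share of the library total (%) of the 20 miRNAs with the highest mean share. Points are the 3 control libraries, the vertical tick is their mean and the grey bar their range. miR162 ranged from 10.4% to 19.6% and miR159 from 13.8% to 18.2%, and control 1 lies at an end of the range for 19 of the 20.

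Summed by family, 9 families held 91.7% ± 1.09 of the counts (SD, n = 3). The miR159 family was first in every library, at 27.8%, 20.5% and 21.3%. Family sums are less exposed than single entries to reads that fit several close members. miR162, with 1 entry, was second by mean share. It was followed by the growth regulator family miR396 at 9.68%, 14.1% and 13.7%, and the HD-ZIP III regulator family miR166 at 9.64%, 11.8% and 12.1%. miR9471 stood at 11.0%, 9.72% and 9.06%, miR7981 at 7.02%, 4.28% and 4.44%, and miR10532, with 1 entry, at the shares given above. These are families with no target named here. The NB-LRR regulator family miR482 stood at 5.84%, 4.80% and 4.18%, and miR9470 at 4.58%, 3.16% and 3.14%. By mean share the tenth family was miR6027, at 0.985%, 1.28% and 1.15%. In controls 2 and 3 the tenth was instead miR164, at 1.45% and 1.24%. A gap thus separated the tenth family from miR9470 in every library. Of the 68 families, 66 had a count, and miR10539 and miR10541, each with 1 entry, had none.

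Of the 68 families, 34 had 1 entry, and in the others the members could be compared. miR159 made up 65.4%, 67.1% and 67.4% of its family, and the ratio of miR159 to miR159b was 1.89, 2.04 and 2.07 (coefficient of variation, CV, the SD as a percent of the mean, 4.89%). That ratio varied less between libraries than the share of miR159 (CV 15.4%) or miR159b (20.7%). The same held for miR7981e to miR7981f, with ratios of 1.78, 1.60 and 1.75 (CV 5.77%, against 31.2% and 27.0% for the shares). miR482e-3p to miR482d-3p gave 30.9, 29.0 and 31.7 (CV 4.59%, against 20.5% and 21.1%). In each of these pairs both entries had their highest share in control 1. By contrast, miR9471a-3p to miR9471b-3p gave 0.758, 1.34 and 1.18 (CV 27.6%), so a different one of the pair led in control 1. Of 46 pairs of entries from 1 family, arms of 1 precursor included, 17 had a ratio that varied less than both shares, and the median CV of the ratios was 20.5%. Where reads that match close members were assigned to 1 of them, such ratios also depend on that assignment, for which the sources give no rule.

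Grouped by what the families are known to regulate, 8 lists of families shared widely among flowering plants held 63 entries and 60.9%, 69.9% and 71.2% of the counts. The 19 families taken as restricted to Solanaceae, with 39 entries, held 23.8%, 18.1% and 17.7%. Control 1 was thus lowest for the first sum and highest for the second, though shares of 1 total cannot move independently. The first sum includes miR162, at 10.4%, 18.0% and 19.6%. The lists within it did not all follow it. MYB and TCP regulators (28.2%, 20.7% and 21.6%) and phosphate and sulfate regulators (0.177%, 0.123% and 0.0627%) were highest in control 1. Auxin regulators and NF-Y and F-box regulators were intermediate there. Each family was placed in a single list. The NB-LRR and receptor regulators are therefore in neither sum, whatever plants they are known from. All targets below are those known in tomato or Arabidopsis and were not measured.

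Regulators of the HD-ZIP III, GRF, NAC and GRAS groups of transcription factors were the largest list by mean share over all arms. They held 25.0% ± 4.22 (SD, n = 3), with 20.1%, 27.6% and 27.2%. In control 1 the MYB and TCP list was larger, at 28.2%. With less abundant arms left out, they held 22.1% on average and the MYB and TCP list 23.5%, so the order depended on the arms counted. All 16 entries of the HD-ZIP III, NAC, GRAS and GRF list had a count, and its median entry stood at 0.197%. miR166a and miR396b led it, with miR166c-3p at 1.96%, 2.20% and 2.09%. miR164a-5p, a regulator of NAC-domain transcription factors, stood at 0.507%, 1.05% and 0.950%. miR171f, one of the miR171 entries, which target GRAS transcription factors of the HAIRY MERISTEM type, was at 0.0763%, 0.127% and 0.121%. Each of these 3 was lowest in control 1, as were 31 of the 69 entries with a mean of at least 100 counts. miR396a-3p and miR166c-5p, less abundant arms in the same list, were highest there. miR164a-3p, another less abundant arm of the list, was lowest there, at 0.159%, 0.403% and 0.293%.

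The MYB and TCP regulators held 23.5% ± 4.07 (28.2%, 20.7% and 21.6%), almost all of it miR159 and miR159b. miR319a, the leading entry of the family that targets TCP transcription factors of leaf and organ growth, took 0.189%, 0.107% and 0.141%. miR319c-3p took 0.122%, 0.0596% and 0.0925%, and miR319b 0.0639%, 0.0358% and 0.0548%. These 3 miR319 entries followed the same order as miR159, with control 1 highest and control 2 lowest. That order was found in 18 of the 69 entries with a mean of at least 100 counts, so it is not particular to this list.

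Regulators of the small RNA machinery held 17.4% ± 5.26 (11.4%, 19.7% and 21.2%), and miR162 made up most of it. Without miR162 in the list and the total, the other 5 entries took 1.75%. miR168a-5p, which targets the main miRNA effector ARGONAUTE1, was at 0.374%, 0.441% and 0.403%, and miR403-3p, which in Arabidopsis targets ARGONAUTE2, at 0.230%, 0.555% and 0.363%. miR168b-3p was at 0.212%, 0.419% and 0.464%. All 4 named entries had their lowest share in control 1, with CVs from 8.30% for miR168a-5p to 42.7% for miR403-3p. So did 31 of the 69 entries with a mean of at least 100 counts. Of the rest of the list, miR168a-3p was also lowest there, and miR403-5p was lowest in control 3 (CV 48.4%).

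Regulators of NB-LRR resistance genes and receptor-like proteins, many of which start cascades of secondary small RNAs, held 7.36% ± 0.734 (8.06%, 7.42% and 6.59%), and 12 of 15 entries had a mean of at least 100 counts. miR482e-3p took 3.65%, 2.89% and 2.43%, and miR482b 1.22%, 0.863% and 0.882%. miR6022, from a family that targets receptor-like proteins, was among the steadiest entries, at 0.821%, 0.892% and 0.797%. miR6026, which targets NB-LRR genes and in tomato also a Dicer-like gene of antiviral defence, stood at 0.314%, 0.316% and 0.358%. miR5300, another NB-LRR regulator, stood at 0.0777%, 0.109% and 0.0806%. At the low end, miR6023 had 13, 9 and 7 counts and miR6025 had 5, 4 and 5.

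The Solanaceae list was uneven. It held 19.9% ± 3.44 of the counts, yet its median entry stood at 0.00402%, below the median of all 137 entries, 0.0148%. Both medians include less abundant arms of precursors, such as miR9471b-5p with 8, 2 and 2 counts. miR9471a-3p, miR9471b-3p, miR9470-3p, miR7981e and miR7981f carried most of the list's counts. miR7981e took 4.44%, 2.59% and 2.77%. miR1919c-5p took 0.398%, 0.303% and 0.332%. miR1917, which targets splice forms of the ethylene-signalling kinase gene CTR4, had only 5, 2 and 3 counts. Of its 39 entries, 36 had a count and 15 had a mean of at least 100.

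The remaining lists each held under 1% of the counts on average. The phase change list, of miR156, a regulator of SBP-box factors such as the ripening regulator CNR, and miR172, which targets AP2-like factors, held 0.474%, 1.06% and 0.592%. miR156d-5p took 0.174%, 0.490% and 0.219%, and miR156a 0.192%, 0.425% and 0.222%. Both were highest in control 2, with a share of miR156a there 1.92-fold that in control 3. miR156e-5p was instead highest in control 3, at 0.0544%, 0.0793% and 0.0909%. miR172c was lower than these miR156 entries and even, with 140, 155 and 164 counts.

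The auxin list held 0.332%, 0.359% and 0.329%, mostly miR167a, which targets auxin response factors of the ARF6 and ARF8 type, at 0.288%, 0.314% and 0.277%. miR160a, which targets other auxin response factors, had 147, 101 and 158 counts. miR393, which targets the TIR1 group of auxin receptors, had 5, 0 and 3. The copper list held 0.126%, 0.220% and 0.223%. miR398a, which targets copper/zinc superoxide dismutase, took 0.108%, 0.176% and 0.196%, and miR397-5p, which targets laccases, had 70, 162 and 82 counts.

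The phosphate and sulfate list held 0.177%, 0.123% and 0.0627%. miR395a, a regulator of sulfate transporter and ATP sulfurylase genes, took 0.161%, 0.0990% and 0.0466%, with 1062, 638 and 349 counts. miR399, which in Arabidopsis targets the phosphate regulator PHO2, had 51, 95 and 77 counts, and miR827, whose targets encode SPX-domain proteins of phosphate handling, had 7, 11 and 20. In the list of NF-Y and F-box regulators, 5 of 9 entries had a count. miR169f, of the family that targets NF-YA transcription factors, took 0.103%, 0.116% and 0.0606%. miR394-5p, a regulator of the F-box gene LEAF CURLING RESPONSIVENESS, had 143, 76 and 104 counts. Apart from miR10532, the 20 entries in no list were led by miR10537 with 543, 409 and 546 counts.

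**Figure D3:**
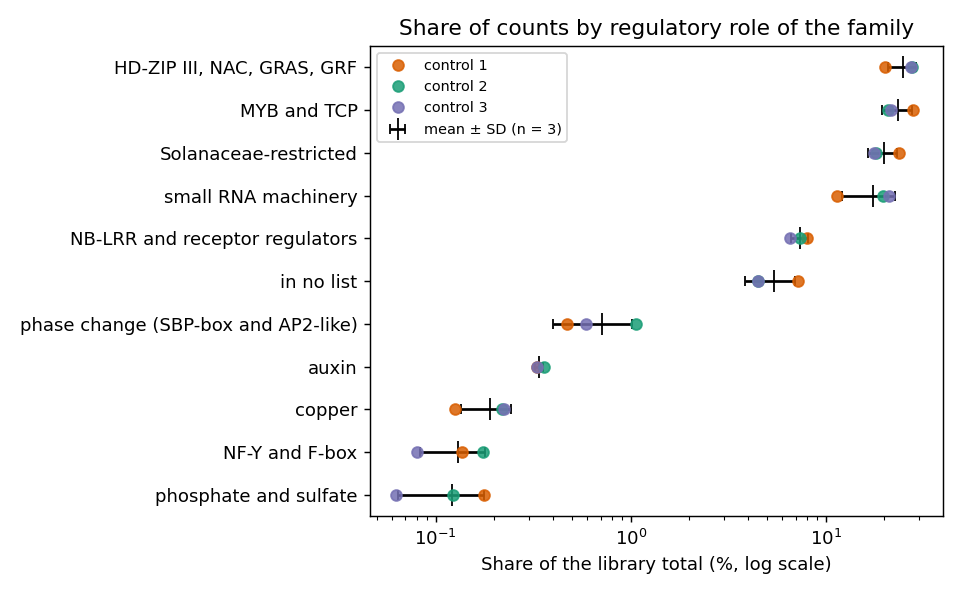
Share of the library total (%, log scale) of each list of families, grouped by what they are known to regulate. Points are the 3 control libraries and the black mark with bars is mean ± SD (n = 3). The lists span from 0.121% for phosphate and sulfate to 25.0% for HD-ZIP III, NAC, GRAS and GRF regulators.

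The spread among libraries exceeded counting error for most miRNAs. Over the 69 entries with a mean of at least 100 counts, the CV of the share had a median of 23.0% (quartiles 14.4% and 31.6%, range 4.89% to 103%), where counting alone gives a median of 3.01%. The CV was above counting error in 67 of the 69 and above 2 times counting error in 63. Between the highest and the lowest library, the share differed by more than 2-fold in 16 entries, and the median ratio was 1.54. edgeR's common dispersion was 0.0885, which edgeR terms a biological coefficient of variation of 0.297. Separate plants are not stated in the labels, so this spread may also be technical. Without control 1, the median CV of controls 2 and 3 alone was 9.63%, and the dispersion was 0.0653. Without control 3 the dispersion was 0.109.

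The steadiest entries were miR6024, miR166c-3p, miR6022, miR167a and miR172c. miR6024, an NB-LRR regulator, had 142, 152 and 173 counts (CV 4.89%), and miR172c a CV of 6.73%. These are the 2 entries whose CV was below their counting error of 8.01% and 8.08%. miR166c-3p, with 12998 counts or more in every library, had a CV of 5.68%, miR6022 of 5.92% and miR167a of 6.47%.

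The most variable entry was miR169e-3p, with 80, 305 and 44 counts (CV 103%), 8.06-fold higher in share in control 2 than in control 3. miR156d-5p followed with 1149, 3157 and 1641 counts (CV 58.1%). miR395a had a CV of 55.9%, miR397-5p of 53.4% and miR403-5p, with 252, 401 and 171 counts, of 48.4%. Of these 5, miR395a alone was highest in control 1, and the other 4 were highest in control 2. These same 5 are the entries that differed by more than 2-fold between controls 2 and 3, the libraries that were otherwise closest. The CV already includes that difference, so the overlap is no separate observation. Between controls 2 and 3, 42 of the 69 entries lay within 1.2-fold.

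**Figure D4:**
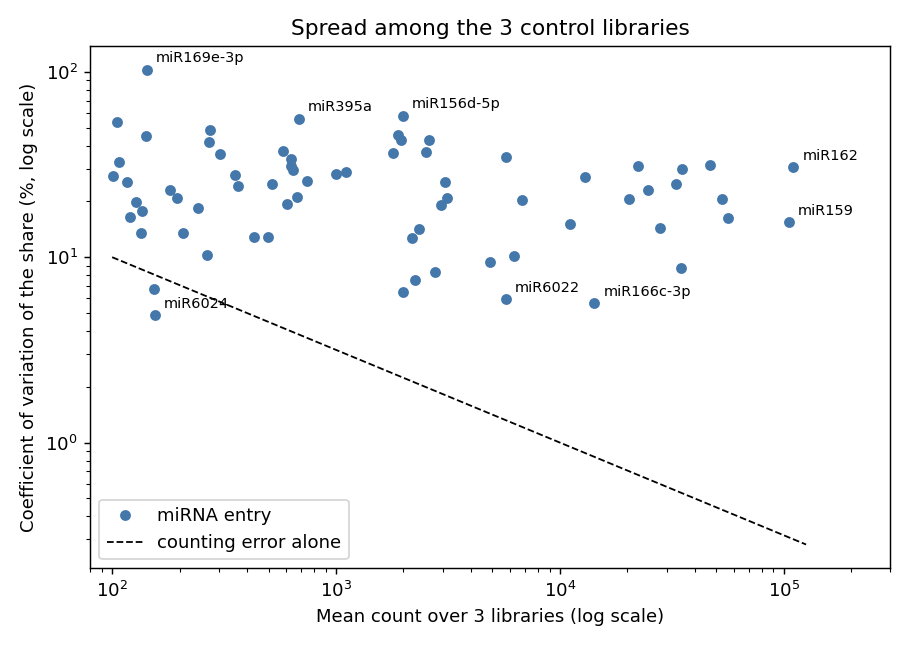
Coefficient of variation of the share among the 3 control libraries (%, log scale) against the mean count (log scale) for the 69 miRNAs with a mean of at least 100. The dashed line is counting error alone. All but miR6024 and miR172c lie above it, up to 103% for miR169e-3p.

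Both arms were listed for 32 precursors, and 24 of them had at least 100 summed counts. In 22 of the 24 the same arm led in all 3 libraries. The 5p arm led by summed counts in 13 and the 3p arm in 11. The leading arm was chosen from these counts, so the ratios are descriptions, and an exact two-sided sign test over 3 libraries cannot go below p = 0.25. The median ratio of leading to other arm, from summed counts, was 15.9. It was over 10 in 12 precursors and under 2 in 5.

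The most one-sided precursor was miR9471b, with 41343, 26723 and 31130 counts of the 3p arm against 8, 2 and 2 of the 5p arm. miR482d had 782, 644 and 576 counts of the 3p arm against 1, 1 and 0. miR319c had 805, 384 and 693 counts of the 3p arm against 0, 1 and 1. miR9471a had 31349, 35912 and 36699 counts of the 3p arm against 52, 21 and 52, a ratio of 832 from the sums. miR9473 had 110, 130 and 163 counts of the 5p arm against 1, 0 and 0. Apart from miR9471a, the other arm of these precursors had at most 8 counts in any library.

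At the even end, the leading arm was not fixed. miR390a, which starts the production of secondary small RNAs against auxin response factors, had 14, 30 and 30 counts of the 5p arm against 17, 28 and 26 of the 3p arm. miR167b had 33, 67 and 59 counts of the 5p arm against 49, 37 and 95 of the 3p arm. In miR477 the ratio of 5p to 3p was 1.66, 1.19 and 1.70, in miR168a 2.22, 1.77 and 1.14, and in miR6027, an NB-LRR regulator, 1.88, 1.54 and 1.63. The 5p arm led in all 3 libraries in these last 3, and the 5p share of miR168a ran from 53.2% in control 3 to 69.0% in control 1.

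Less abundant arms were themselves abundant in a few precursors. Together they held 3.80%, 3.79% and 3.59% of the counts, a share that did not set control 1 apart. Of their summed counts, 43.7% were miR396a-3p, 24.4% miR166c-5p, 11.5% miR6027-3p and 7.64% miR164a-3p. miR396a-3p alone took 1.90%, 1.60% and 1.41% of each library and ranked 15th in all 3. It was highest in control 1, where its partner miR396a-5p was lowest, and the ratio of 5p to 3p was 1.83, 2.91 and 2.96. For miR164a the ratio was 3.18, 2.61 and 3.25.

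**Figure D5:**
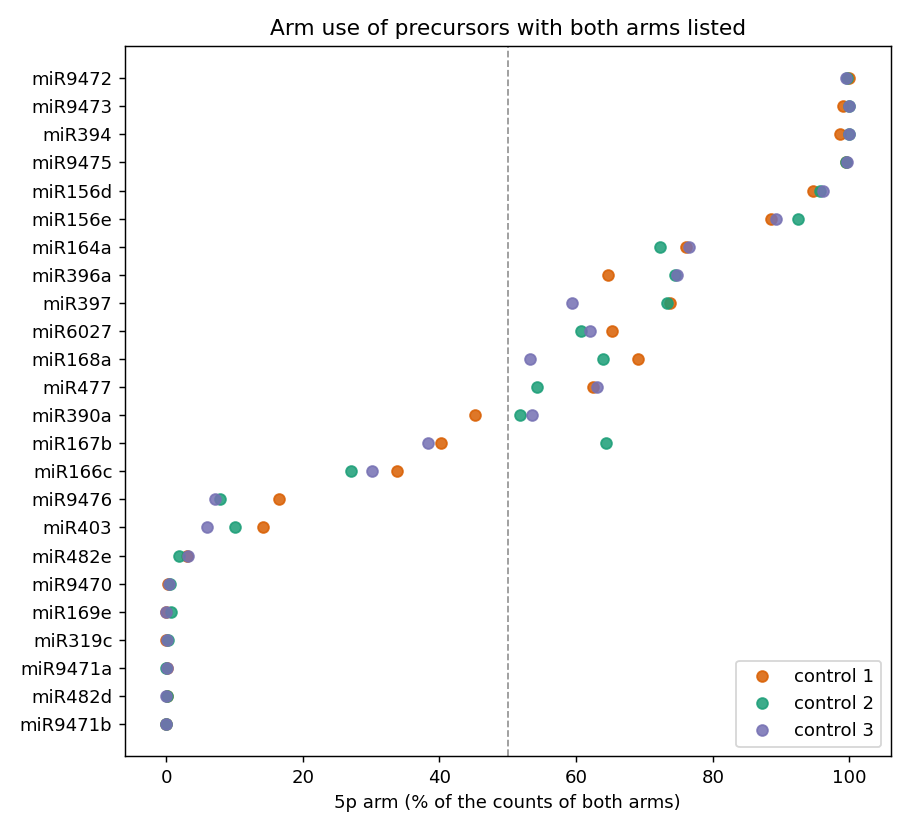
Percent of the counts of both arms that came from the 5p arm, for the 24 precursors with both arms listed and at least 100 summed counts. Points are the 3 control libraries and the dashed line marks equal arms. Only miR167b and miR390a cross the line, and miR168a ranged from 53.2% to 69.0%.

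Of the 137 entries, 126 had a count in at least 1 control library and 113 in all 3. No count was found for 11 entries. They were miR169a, miR169b, miR169c and miR169d of the NF-YA regulators, miR319d, miR5302a, miR5302b-3p, miR9469-5p, miR10535b, miR10539 and miR10541. A count of 0 in all 3 libraries allows up to 3 of 2055371 counts, 0.000146%, counting error only. In a single library it allows 0.000453%, 0.000466% and 0.000400%. All counts of the miR169 family were thus assigned to miR169f and miR169e, with miR169e-5p at 0, 2 and 0 counts. Where reads fit several close members, a count of 0 also depends on the entry they were assigned to. The sources give no rule for that assignment, and its part in the zeros was not tested. A further 13 entries had a count in 1 or 2 libraries and under 10 counts in all, and 10 of these are the less abundant arm of a precursor. The other 3 were miR393, miR10529 and miR10535a.

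A RefSeq gene table of tomato assembly SLM_r2.1 held a precursor for 96 of the 105 precursor names. The build behind the counts is not stated, so the table served only for names and neighbours. In it, 5 pairs of listed precursors were direct neighbours with no annotated gene between them. miR9471a and miR9471b were such a pair, with similar summed counts of 104085 and 99208, although control 1 had more of miR9471b and the other libraries more of miR9471a. miR482b and miR482c were another, with 20261 and 6584 counts and a ratio of 3.33, 2.81 and 3.04. miR9470 and miR10537 differed far more, with 74234 and 1498 counts. miR169d and miR169b, both at 0, were neighbours too, as were miR169c at 0 and miR5302b at 74 counts.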

How the data were processed

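Small RNA libraries of green fruit were made from 240 ng of total RNA with an adapter-ligation kit (NEBNext Multiplex Small RNA), per the labels' protocols. The authors deposited 1 table with the total count of each mature miRNA per sample; per the file headers these counts are not normalized. The aligner, trimmer, genome build and miRNA release are not given in the sources. 6 columns of deposited per-sample normalized values were not used, nor were the drought counts.

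Shares are counts over the library total, with mean ± SD over 3 libraries. Families were summed over the number after miR. CVs were taken for entries with a mean of at least 100 counts, and counting error is 1 over the square root of the mean count. The dispersion came from edgeR 4.0.16 (TMM, filterByExpr with minimum count 10 and minimum total 15, intercept only) in R 4.3.3. The estimate was tested on simulated libraries with known dispersions and the same expected composition. That test does not cover a library that stands apart, as control 1 did. DESeq2 1.42.0 gave alternative size factors. Python 3.11.15 did the rest. With 1 group there was no contrast, so no test of a difference was made. PCR copies are not marked, so limits cover counting error only.

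miRNAs were named by rule: the 10 most abundant, the 2 most abundant of each list, the 5 steadiest and 5 most variable, the 5 highest and 5 lowest arm ratios, and all at 0. Others, such as the low miR6023, miR6025, miR393, miR1917 and miR827, were added after their values were seen. The libraries, lists and rules were chosen with earlier results of these data known. Sequences of the miRNAs were not used here.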

Additional observations from a re-analysis of the deposited data

How the results depend on the processing

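For 18 summary values (counts of entries, shares, CV and dispersion), 90 alternatives were run. Of these, 82 moved a share by less than its spread between libraries, or another value by less than 1.5 times. Leaving out a single library cannot shift the mean share of a fixed list by as much as that spread. Those outcomes were fixed in advance, so the number of unmoved alternatives is no measure of robustness. The number of entries without a count was 11, and 24 entries had fewer than 10 summed counts. With the most abundant entry, miR162, left out of the total, the list shares became 27.8% for MYB and TCP, 0.406% for auxin, 30.0% for HD-ZIP III, NAC, GRAS and GRF, 8.74% for NB-LRR and receptor regulators and 23.5% for Solanaceae-restricted, which follows from the smaller total. The small RNA machinery list, which itself loses miR162, became 1.75%. Leaving out single libraries gave a median CV between 9.63% (without control replicate 1) and 26.2% (without control replicate 3). No paired analysis was possible because the report describes 1 group and makes no comparison between groups. The planned shares by first base and length of the miRNA were not run, since no sequences were used here. Depth limits the statements on entries with few counts, such as the 55 under 0.01%.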
